A study of Macaca mulatta with 52 samples.

Results

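Transcripts of 6 genes, PDGFRA, LRP2, CUBN, AMN, DAB2 and FRZB, were followed across preimplantation stages in single rhesus monkey embryos (Macaca mulatta). They were grouped by symbol as receptors linked to the primitive endoderm, their endocytic partners and a WNT antagonist, and each was taken from the row of the count table that its Ensembl identifier names. All 6 had 1 row each among 26309 identifiers, 15078 of them with a symbol. The series compared transcriptomes of embryos at successive stages. Embryos were obtained by in vitro fertilisation of oocytes matured in hormone-stimulated females, and were grown in culture with or without relaxin, a peptide hormone. Which embryos were given the hormone is not labelled, and it enters no comparison.

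Libraries were made with 2 kits, and 49 libraries were analysed. The SoLo kit, a low-input kit, gave 4 8-cell embryos, 3 morulas and 6 expanded blastocysts. The SPIA kit, which amplifies cDNA linearly from a chimeric primer, gave 9 embryos at the 8-cell stage, 11 morulas, 14 expanded and 2 delayed blastocysts. No genetic change, strain, parent or age is labelled for any group. Each library is 1 whole embryo, so fewer cells of a type and less RNA per cell cannot be told apart. Titles carry a 6-digit code that groups embryos, and its meaning is not stated. No expanded blastocyst shares a code with an 8-cell embryo or a morula, so stage and code cannot be told apart in comparisons with the blastocyst. In SoLo no morula shares a code with an 8-cell embryo, so the same holds for SoLo morulas against SoLo 8-cell embryos. Totals ran from 5.70 to 10.6 M (mega) counts in SoLo and from 0.601 to 21.0 M in SPIA.

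The primitive endoderm, or hypoblast, is the epithelium that forms on the cavity-facing side of the inner cell mass and later lines the yolk sac. PDGFRA is a receptor tyrosine kinase for platelet-derived growth factors and a widely used mark of this lineage in mouse and primate embryos. LRP2 (megalin) and CUBN (cubilin) are giant endocytic receptors of absorptive epithelia such as kidney proximal tubule and mouse visceral endoderm. Cubilin has no membrane span of its own and reaches the cell surface bound to AMN (amnionless). DAB2 is the adaptor that links the tail of megalin to clathrin. FRZB is a secreted frizzled-related protein that binds WNT ligands outside the cell.

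The 6 genes did not share a course. LRP2 and DAB2 were higher in expanded blastocysts than in 8-cell embryos in both kits, AMN was so in SoLo, and FRZB was lower in both kits. CUBN was lower in SPIA, a call that rested on 2 8-cell embryos, and PDGFRA was detected at every stage with a smaller difference. The medians of CUBN and FRZB were highest at the 8-cell stage in both kits, a stage before the primitive endoderm forms. In the whole embryo the rise of LRP2 also ran beside genes of the outer layer. The gene most similar to LRP2 was KRT18, a keratin of simple epithelia. Between the 8-cell stage and the expanded blastocyst 4 of the 6 measured trophectoderm markers rose in each kit. Of 15 other primitive endoderm genes tested, 9 rose and 1 fell in SoLo, and 10 rose and 2 fell in SPIA. Over all genes tested, 38.4% were called in SoLo and 36.6% in SPIA. Which cells held the transcripts was not tested.

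**Figure D1:**
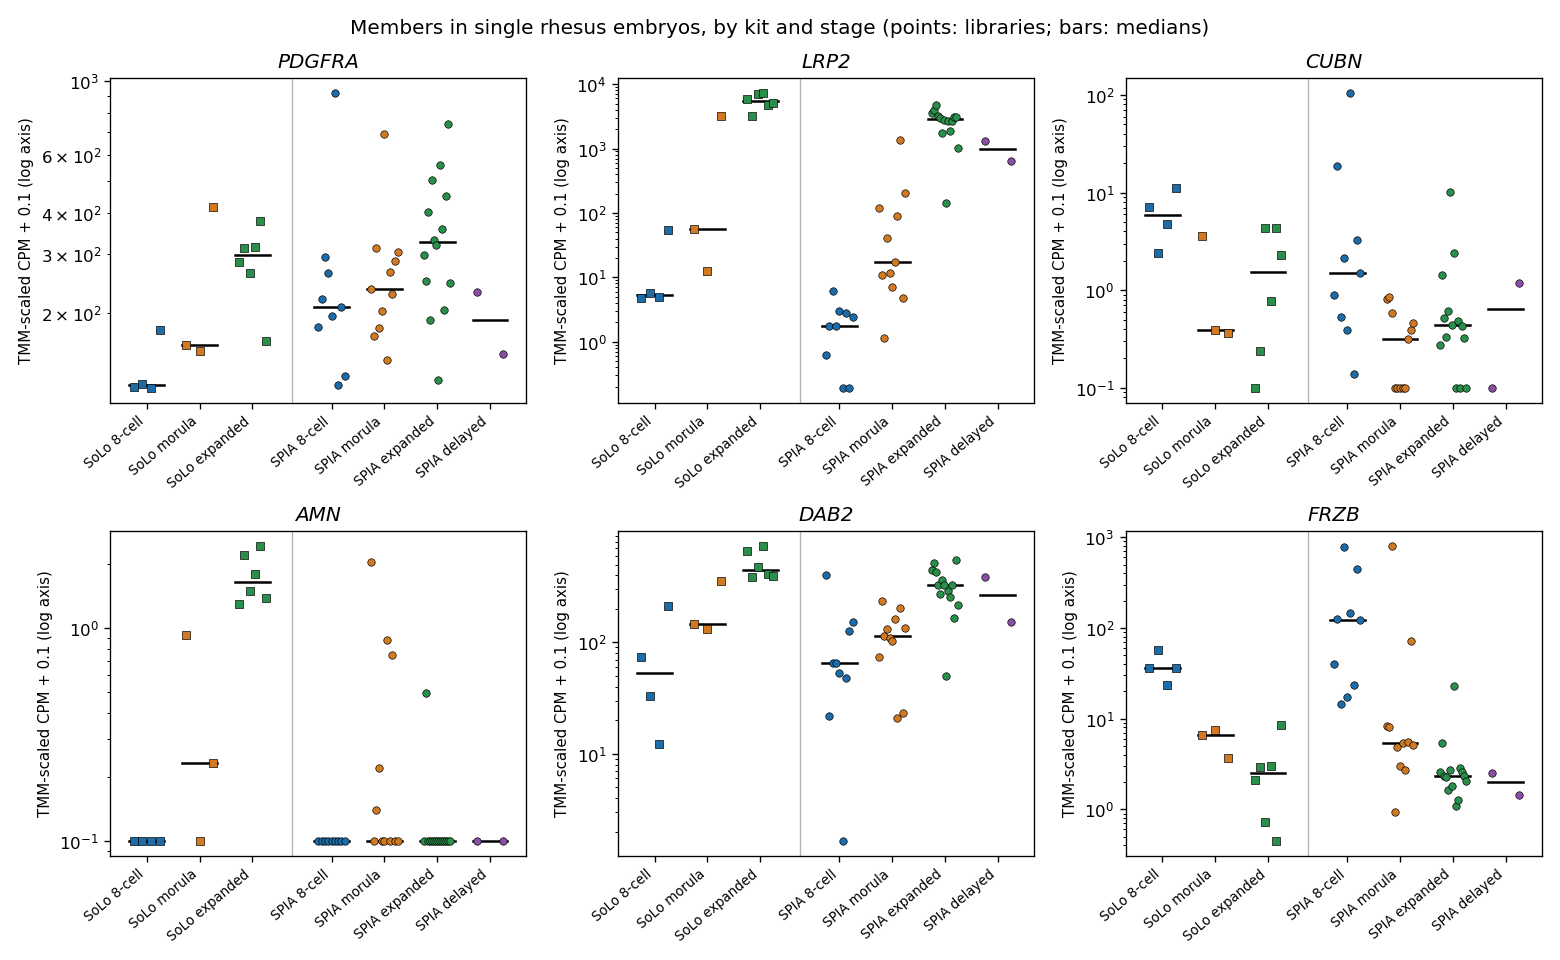
Each point is 1 embryo library, plotted as TMM-scaled counts per M (CPM) plus 0.1 on a log axis, by kit and stage, and bars are medians. LRP2 lies between 144 and 4797 CPM in SPIA expanded blastocysts and between 0.0912 and 5.95 CPM in SPIA 8-cell embryos, FRZB runs the other way, and AMN is at 0 in all 8-cell libraries.

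Libraries that stand apart touch several results. Morula 022916_01 carried far more LRP2 than the other morulas in both kits, and 1345 summed CPM of trophectoderm markers in SoLo, where the other morulas had 176.5 and 247.7 CPM. In SPIA its sum of these markers was 372.2 CPM, above every other morula except 022916_02. That morula had 512.4 CPM of the markers and 4.73 CPM of LRP2. The 8-cell SPIA library 020816_09 had 1.003 summed CPM of 3 measured epiblast markers and 4.29 CPM of trophectoderm markers, the lowest of the 9 in each case. Among SoLo 8-cell embryos, 112815_02, 020816_07 and 020816_06 held 1296, 2262 and 575.8 summed CPM of cumulus and granulosa markers, against 20.6 CPM in 020816_08. Cumulus cells surround the oocyte and were removed by pipetting. The expanded blastocyst 111715_05 had the shallowest library, with 0.601 M counts. Values without these libraries are given beside the calls on the 6 genes that they change. The fit without the 3 SoLo 8-cell embryos with cumulus markers leaves 1 8-cell library in SoLo, which is assumed to vary like the other groups. In SPIA the fit without the same 3 embryos keeps 011516_02 and 020816_09, with 217.7 and 113.5 summed CPM of these markers. Embryo 011516_02 also had the highest DAB2 of the SPIA 8-cell group. Tests are edgeR quasi-likelihood tests across all genes, fitted apart in each kit, and a gene with a Benjamini-Hochberg adjusted p under 0.05 is called.

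PDGFRA (ENSMMUG00000017395) was counted in all 49 libraries, at 118.7 CPM or more. In SoLo its level was 118.7, 119.3, 122.1 and 177.9 CPM at the 8-cell stage, 153.0, 159.6 and 417.7 CPM in morulas, and 164.3 CPM at the lowest, 299.7 CPM at the median and 379.0 CPM at the highest in expanded blastocysts. In SPIA the lowest, median and highest values were 121.4, 208.0 and 919.4 CPM at the 8-cell stage, 143.7, 236.3 and 691.3 CPM in morulas, and 125.7, 326.3 and 739.6 CPM in expanded blastocysts. All stages overlapped in both kits, and the receptor was already counted in every 8-cell library.

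Between the 8-cell stage and the expanded blastocyst PDGFRA rose in SoLo, by a log2 fold change of 1.09 ± 0.29 (SE; edgeR adjusted p = 0.00731). Without the 3 8-cell embryos with cumulus markers the SoLo value was 1.27, no longer past the threshold (edgeR adjusted p = 0.112). In SPIA the same comparison gave 0.34 ± 0.32 (edgeR adjusted p = 0.435). The difference between the kits was itself not past the threshold (interaction over the same embryos, edgeR adjusted p = 0.788). The SPIA value depended on 8-cell embryo 020816_09, the highest at 919.4 CPM: without it the log2 fold change was 0.82, with an edgeR adjusted p of 0.0237. Morulas did not differ from 8-cell embryos past the threshold in either kit (SoLo 0.86, edgeR adjusted p = 0.0832; SPIA -0.04, edgeR adjusted p = 0.958), and the SPIA direction turned under other filters and scalings. Without morula 021016_03 the SoLo value was 1.11 (edgeR adjusted p = 0.0399).

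PDGFA, the ligand that binds PDGFRA in the mouse blastocyst, averaged 5.55 ± 3.89 CPM at the 8-cell stage, 9.39 ± 12.4 CPM in morulas and 31.2 ± 11.4 CPM in expanded blastocysts in SoLo (SD, n = 4, 3 and 6). In SPIA it averaged 7.30 ± 7.12, 19.7 ± 25.2 and 57.4 ± 38.1 CPM at the same stages (n = 9, 11 and 14). It rose between the 8-cell stage and the expanded blastocyst in both kits (log2 fold change 2.49 ± 0.74 in SoLo, edgeR adjusted p = 0.0140; 2.98 ± 0.81 in SPIA, edgeR adjusted p = 0.00373).

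Of the PDGF ligands and related receptors, 5 genes were tested in each kit. Over that interval 1 rose in SoLo, while in SPIA 3 rose (PDGFRB, PDGFC and PDGFA) and 2 fell (CSF1R and FLT3, receptors of blood cell growth factors). Over all genes tested, 38.4% were called in SoLo and 36.6% in SPIA for this interval, so 1 of 5 in SoLo lies below that share. The FLT3 call is close to the threshold (edgeR adjusted p = 0.0398) and was lost in 11 of 23 fits that each left out 1 library. The median log2 fold change of the list was 0.90 in SoLo and 2.98 in SPIA, where the medians of all genes were -0.05 and -0.43. PDGFRB also stands in the list of stroma markers, whose summed level in expanded blastocysts ran from 3.20 to 124.2 CPM in SoLo and from 0 to 57.3 CPM in SPIA.

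LRP2 (ENSMMUG00000017143) was counted in all 49 libraries and had its highest values in the blastocyst. In SoLo its level was 4.68, 4.75, 5.50 and 53.6 CPM in 8-cell embryos. The 3 morulas had 12.6, 56.9 and 3224 CPM, and the expanded blastocysts ran from 3159 to 7259 CPM with a median of 5535 CPM. The blastocyst values thus lay above every 8-cell value but not above morula 022916_01.

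In SPIA, LRP2 ran from 0.0912 to 5.95 CPM in the 9 8-cell embryos, with a median of 1.63 CPM. The 11 morulas spread from 1.04 to 1337 CPM around a median of 17.1 CPM. In the 14 expanded blastocysts it ran from 144 to 4797 CPM with a median of 2837 CPM. The highest morula was again 022916_01 and the lowest blastocyst was the shallow library 111715_05, and blastocyst and 8-cell ranges did not overlap.

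On a log scale the range of LRP2 was wider among morulas than among 8-cell embryos or expanded blastocysts in both kits. Morulas had more of it than 8-cell embryos in both kits (log2 fold change 6.01 ± 1.64 in SoLo, edgeR adjusted p = 0.0296; 6.38 ± 1.11 in SPIA, edgeR adjusted p = 3.31e-04). Without morula 022916_01 the SoLo value was 1.04 (edgeR adjusted p = 0.509), while the SPIA value was 4.65 (edgeR adjusted p = 4.91e-04). The SoLo call was lost in 4 of 7 fits that each left out 1 library: without that morula, and without 8-cell embryo 020816_06, 020816_07 or 020816_08, where the log2 fold change stayed between 5.70 and 5.71 with edgeR adjusted p from 0.0634 to 0.0724. It was lost too without the 3 8-cell embryos with cumulus markers (7.85, edgeR adjusted p = 0.190). The SPIA call was lost in limma's voom model (adjusted p = 0.108, and 0.0806 with title code as a random block). Within title code 020816, the only one that holds both stages, the log2 fold change was 4.15 (edgeR adjusted p = 0.361) over 3 morulas and 5 8-cell embryos.

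Between the morula and the expanded blastocyst, LRP2 rose again in SPIA, by 4.00 ± 0.88 on the log2 scale (edgeR adjusted p = 0.00356). In SoLo the log2 fold change was 2.34 ± 1.46 (edgeR adjusted p = 0.471), and 7.31 with an edgeR adjusted p of 0.0139 without morula 022916_01. From the 8-cell stage to the expanded blastocyst it rose by 8.35 ± 1.77 in SoLo (edgeR adjusted p = 0.00367) and by 10.4 ± 1.30 in SPIA (edgeR adjusted p = 6.33e-07), on the log2 scale. Without the 3 8-cell embryos with cumulus markers the SoLo value was 10.2, no longer past the threshold (edgeR adjusted p = 0.0978), and the SPIA value was 10.9 (edgeR adjusted p = 1.56e-05). The delayed blastocysts had 629.4 and 1304 CPM, within the range of the expanded ones.

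CUBN (ENSMMUG00000016069), the partner of LRP2 in protein uptake, was scarce at all stages and, unlike LRP2, had its highest median at the 8-cell stage. That LRP2 and CUBN differ in course was known from earlier results when they were set together, and it is given here as a description. In SoLo it had 2.28, 4.64, 6.97 and 10.96 CPM at the 8-cell stage, 0.262, 0.293 and 3.48 CPM in morulas, and from 0 to 4.21 CPM with a mean of 1.90 ± 1.94 CPM in expanded blastocysts (SD, n = 6). The stages overlapped, although 3 of the 4 8-cell embryos lay above every later library.

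In SPIA, CUBN ran from 0.0392 to 104.0 CPM in 8-cell embryos with a median of 1.41 CPM, and the next highest value was 18.4 CPM. In morulas it ran from 0 to 0.749 CPM, with no count in 5 of 11. In expanded blastocysts it ran from 0 to 10.1 CPM with a median of 0.336 CPM, with no count in 3 of 14. The 2 high 8-cell embryos, 020816_09 and 011516_03, held 1140 and 486 of the 1747 counts of their group.

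CUBN was lower in SPIA morulas than in SPIA 8-cell embryos, with a log2 fold change of -5.77 ± 1.35 (edgeR adjusted p = 0.00319), and was lower in expanded blastocysts than in 8-cell embryos by -3.67 ± 1.13 (edgeR adjusted p = 0.00902). Both calls rested on the 2 high embryos. Without them the values were -2.19 (edgeR adjusted p = 0.222) and -0.08 (edgeR adjusted p = 0.967), and without 020816_09 alone the blastocyst value was -1.54 (edgeR adjusted p = 0.294). Voom gave -1.75 for that comparison (adjusted p = 0.161). In SoLo the log2 fold changes were -2.17 (edgeR adjusted p = 0.336) in morulas and -1.69 (edgeR adjusted p = 0.269) in expanded blastocysts against 8-cell embryos. Between the morula and the expanded blastocyst no CUBN difference passed the threshold in either kit (SoLo 0.48, edgeR adjusted p = 0.901; SPIA 2.10, edgeR adjusted p = 0.212).

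**Figure D2:**
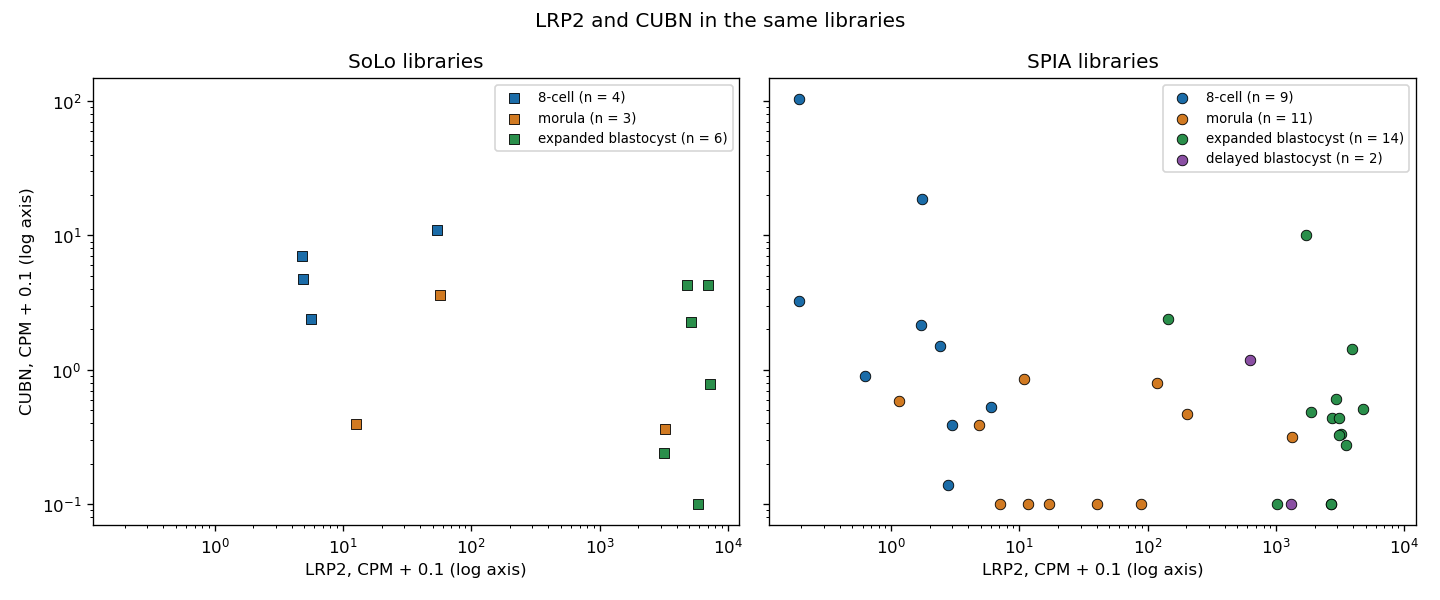
Each point is 1 library, with LRP2 on the x axis and CUBN on the y axis, both as CPM plus 0.1 on log axes, SoLo left and SPIA right. Points move to the right by stage, expanded blastocysts starting at 144 CPM of LRP2 and 8-cell libraries reaching 53.6 CPM at most, while the 2 highest CUBN values, 104.0 and 18.4 CPM, are SPIA 8-cell embryos.

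AMN (ENSMMUG00000039505) was counted in 14 of 49 libraries. It had no count in any 8-cell embryo of either kit. In SoLo the morulas had 0, 0.131 and 0.825 CPM, and all 6 expanded blastocysts had it, from 1.20 to 2.33 CPM with a mean of 1.67 ± 0.46 CPM (SD). Blastocysts did not overlap with morulas or with 8-cell embryos. AMN rose between the 8-cell stage and the expanded blastocyst in SoLo (edgeR adjusted p = 0.00764), and the call was lost without the 3 8-cell embryos with cumulus markers (edgeR adjusted p = 0.124). With the 8-cell group at its floor of 3 counts over the group, the pooled level of expanded blastocysts was 16.0-fold higher. That figure covers counting error in the 8-cell group only.

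In SPIA, AMN did not pass the filter on low counts and has no test. It was counted in 5 of 11 morulas, with a highest value of 1.94 CPM, and in 1 of 14 expanded blastocysts. The 4 expanded blastocysts with a library in each kit had 9, 15, 20 and 10 AMN counts in SoLo, and 0 in SPIA. At the SPIA depths of these embryos a count of 0 allows up to 0.524 CPM, a limit for counting error only. With the SPIA 8-cell group at its floor of 3 counts, the pooled level was 7.02-fold higher in SPIA morulas and 3.30-fold higher in SPIA expanded blastocysts. These figures cover counting error in the 8-cell group only. They are not limits on the level, since SPIA counted 0 AMN in the 4 paired blastocysts where SoLo counted it. The morula figure rests on 21 counts, of which 11 came from morula 020816_02, and without that morula it was 3.52-fold. The blastocyst figure rests on 8 counts, all from blastocyst 111215_02, and without that library no AMN count and no figure remain.

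DAB2 (ENSMMUG00000019879) was present at all stages and highest in the blastocyst. In SoLo it had 12.1, 32.9, 73.8 and 213.0 CPM at the 8-cell stage, 131.0, 146.0 and 353.3 CPM in morulas, and from 385.9 to 731.9 CPM in expanded blastocysts with a median of 446.3 CPM. All blastocysts lay above all earlier embryos. In SPIA the lowest, median and highest values were 1.55, 64.6 and 405.9 CPM at the 8-cell stage, 20.6, 114.1 and 234.0 CPM in morulas, and 50.3, 327.3 and 553.2 CPM in expanded blastocysts, and the ranges overlapped.

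DAB2 rose between the 8-cell stage and the expanded blastocyst in both kits (log2 fold change 2.62 ± 0.69 in SoLo, edgeR adjusted p = 0.0112; 1.64 ± 0.48 in SPIA, edgeR adjusted p = 0.00667). Without the 3 8-cell embryos with cumulus markers the SoLo value was 5.40 (edgeR adjusted p = 4.01e-04) and the SPIA value was 1.48 (edgeR adjusted p = 0.0410). In SPIA it also rose between the morula and the expanded blastocyst, by 1.45 ± 0.44 (edgeR adjusted p = 0.0225). That step was 1.28 in SoLo (edgeR adjusted p = 0.411). Between the 8-cell stage and the morula the SoLo value was 1.34 (edgeR adjusted p = 0.227), and it passed the threshold without 8-cell embryo 112815_02 (2.40, edgeR adjusted p = 0.0138) and without the 3 8-cell embryos with cumulus markers (4.12, edgeR adjusted p = 0.00240). Over the SPIA embryos that have no SoLo library, neither SPIA difference passed the threshold (1.10 with an edgeR adjusted p of 0.337 against 8-cell embryos, 1.42 with 0.230 against morulas).

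The genes around these receptors were read from a list of 19 chaperones, clathrin subunits and clathrin adaptors, of which 17 were tested. Between the 8-cell stage and the expanded blastocyst 12 rose and 0 fell in SoLo, and 5 rose and 0 fell in SPIA. That is 12 of 17 where 38.4% of all genes were called in SoLo, and 5 of 17 where 36.6% were in SPIA, a smaller share than among all genes. The median log2 fold change of the list was 1.15 in SoLo and 0.15 in SPIA, beside medians of -0.05 and -0.43 over all genes tested.

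LRPAP1, the chaperone that keeps LRP2 and its relatives from binding ligand before they reach the surface, showed the clearest difference of the list in SPIA. In SoLo it averaged 33.8 ± 12.5 CPM at the 8-cell stage, 106.2 ± 145.8 CPM in morulas and 359.1 ± 63.3 CPM in expanded blastocysts (SD, n = 4, 3 and 6). In SPIA the averages were 5.12 ± 3.52, 29.2 ± 22.8 and 230.9 ± 246.3 CPM (n = 9, 11 and 14). It rose over that interval by 3.41 ± 0.73 in SoLo (edgeR adjusted p = 0.00352) and by 5.49 ± 0.72 in SPIA (edgeR adjusted p = 2.25e-07), on the log2 scale. MYO6, a motor of endocytic vesicles, rose by 3.45 and 2.10, and CLTC, the clathrin heavy chain, by 2.15 and 2.10 in SoLo and SPIA. CLCN5, an endosomal chloride transporter, and PICALM, a clathrin assembly protein, rose in both kits too.

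The relatives of LRP2 in the LDL receptor family moved in both directions. Of 9 genes, 9 were tested in SoLo, where 1 rose and 4 fell between the 8-cell stage and the expanded blastocyst, and 8 in SPIA, where 1 rose and 3 fell, beside 38.4% and 36.6% of all genes called. LRP1, a broad endocytic receptor, was the gene that rose in each kit (log2 fold change 1.84 in SoLo, edgeR adjusted p = 0.0458; 2.09 in SPIA, edgeR adjusted p = 0.0325). The LRP1 call was lost in 9 of 10 fits that each left out 1 SoLo library, and in 2 of 23 in SPIA, those without 8-cell embryo 011516_03 or 112815_01 (edgeR adjusted p = 0.0548 and 0.0565). LRP1B fell in both kits, with log2 fold changes of -3.19 in SoLo and -5.40 in SPIA, and so did VLDLR, with -5.02 and -2.06, although its SPIA call (edgeR adjusted p = 0.0420) was lost in 15 of 23 such fits. Of the genes that carry or process vitamin B12, a cargo of the cubilin and amnionless complex, 6 were tested in SoLo (1 rose, 1 fell) and 5 in SPIA (0 rose, and CD320, a receptor for transcobalamin, fell).

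FRZB (ENSMMUG00000014396) was the gene that was lower in later stages in both kits. In SoLo it had 23.2, 36.2, 36.4 and 56.7 CPM at the 8-cell stage, 3.54, 6.51 and 7.33 CPM in morulas, and from 0.350 to 8.32 CPM with a median of 2.41 CPM in expanded blastocysts. The 8-cell embryos lay above all later embryos, and morulas and blastocysts overlapped. In SPIA the lowest, median and highest values were 14.5, 123.1 and 787.6 CPM at the 8-cell stage, 0.845, 5.32 and 797.8 CPM in morulas, and 0.984, 2.23 and 22.9 CPM in expanded blastocysts. Morulas overlapped with 8-cell embryos through 020816_04 at 797.8 CPM and 022916_02 at 72.1 CPM, and the next highest morula had 8.11 CPM. Blastocysts overlapped with 8-cell embryos through the shallow library at 22.9 CPM, a value of 10 counts.

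FRZB was lower in SoLo morulas than in SoLo 8-cell embryos (log2 fold change -2.71 ± 0.86, edgeR adjusted p = 0.0388). In SPIA the log2 fold change was -1.20 ± 0.95 (edgeR adjusted p = 0.399), and -4.04 with an edgeR adjusted p of 3.65e-04 without morula 020816_04. Within title code 020816, which holds that morula, the value was 0.64 (edgeR adjusted p = 0.909). The SoLo call is close to the threshold and was lost in 5 of 7 fits that each left out 1 library, with edgeR adjusted p from 0.0583 to 0.107 without 8-cell embryo 020816_06 or 020816_07 or any of the 3 morulas. Without the 3 8-cell embryos with cumulus markers it was -2.0 (edgeR adjusted p = 0.301). In voom the SPIA difference passed the threshold (-2.79, adjusted p = 0.0454).

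From the 8-cell stage to the expanded blastocyst FRZB fell in both kits (log2 fold change -3.73 ± 0.69 in SoLo, edgeR adjusted p = 5.40e-04; -5.96 ± 1.04 in SPIA, edgeR adjusted p = 4.99e-05). Between the morula and the expanded blastocyst it fell in SPIA by 4.75 ± 0.98 (edgeR adjusted p = 0.00203), and by 1.89 without morula 020816_04 (edgeR adjusted p = 0.0399). That step was -2.26 in voom (adjusted p = 0.261) and -1.02 in SoLo (edgeR adjusted p = 0.516). Cumulus and granulosa markers fell over the same interval: 5 of 7 tested markers fell between the 8-cell stage and the expanded blastocyst in SoLo, and 5 of 9 in SPIA, where 1 rose. Among all genes tested, 38.4% were called in SoLo and 36.6% in SPIA, in either direction. Of 10 measured cumulus and granulosa markers, 7 to 10 were detected in SoLo 8-cell embryos and 3 to 9 in SPIA 8-cell embryos. Their summed level ran from 49.9 to 146.2 CPM in SoLo expanded blastocysts against 20.6 to 2262 CPM in SoLo 8-cell embryos, and from 3.18 to 54.6 CPM in SPIA expanded blastocysts against 3.92 to 1617 CPM in SPIA 8-cell embryos. SoLo embryo 020816_08, the one with 20.6 CPM, had the lowest FRZB of its group, 23.2 CPM, which is above every later SoLo embryo. Without the other 3 SoLo 8-cell embryos the log2 fold change of FRZB in expanded blastocysts was -3.01, just short of the threshold (edgeR adjusted p = 0.0507), and without the same 3 embryos in SPIA it was -5.39 (edgeR adjusted p = 1.62e-04).

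The other secreted WNT antagonists did not share one direction. Of the 4 tested in SoLo, 2 rose (DKK1 and DKK3) and 1 fell (SFRP4) between the 8-cell stage and the expanded blastocyst. Of the 6 tested in SPIA, 1 rose (DKK1) and 3 fell (SFRP4, DKK3 and WIF1). Over all genes tested, 38.4% were called in SoLo and 36.6% in SPIA, and lists of 4 and 6 genes are too short to compare with these shares. The calls on DKK3 and WIF1 in SPIA each rested on 1 8-cell embryo: DKK3 averaged 5.46 CPM over the 9 embryos with 44.7 CPM in the highest, and WIF1 averaged 3.03 CPM with 25.4 CPM in the highest. Without 112815_01 the log2 fold change of DKK3 was -0.54 (edgeR adjusted p = 0.776), and without 011516_02 that of WIF1 was -0.08 (edgeR adjusted p = 0.970). The WIF1 call was lost in 13 of 23 fits that each left out 1 library. DKK1, which blocks the LRP5 and LRP6 coreceptors, averaged 6.18 ± 3.92 CPM in SoLo expanded blastocysts (SD, n = 6) and 1.07 ± 1.20 CPM in SPIA expanded blastocysts (n = 14), and had no count in any 8-cell embryo. SFRP4, a relative of FRZB, averaged 0.177 ± 0.196 CPM in SoLo expanded blastocysts, against 14.4 ± 12.9 CPM in SoLo 8-cell embryos (n = 6 and 4). In SoLo, DKK3 averaged 2.22 ± 2.23 CPM in expanded blastocysts (n = 6) and had no count in the 4 8-cell embryos.

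On the ligand side, 4 WNT genes were tested in SoLo and 6 in SPIA. Over the same interval WNT16 was the ligand that rose in both kits, averaging 17.9 ± 6.45 CPM in SoLo expanded blastocysts and 12.9 ± 10.3 CPM in SPIA expanded blastocysts (SD, n = 6 and 14), with 8-cell averages of 0 and 0.0180 CPM. WNT7A rose in SPIA. Of the receptors and R-spondins, 5 rose and 1 fell of 10 tested in SoLo, and 3 rose and 2 fell of 12 in SPIA, beside 38.4% and 36.6% of all genes called. LGR4, an R-spondin receptor, rose by 4.31 in SoLo (edgeR adjusted p = 8.37e-06) and by 3.84 in SPIA (edgeR adjusted p = 3.06e-06) on the log2 scale. RSPO3, an R-spondin, rose by 8.00 and 6.67, and FZD3, a WNT receptor, fell in both kits (-1.16 in SoLo, -4.15 in SPIA). The FZD3 call was lost in 5 of 10 fits that each left out 1 SoLo library, and in SPIA without 8-cell embryo 020816_09 (-1.54, edgeR adjusted p = 0.0744).

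Counts of the 6 genes are set beside the share of all tested genes that was called. The members were chosen with earlier results of these data known, so the counts are a description and not a test. Between the 8-cell stage and the expanded blastocyst 5 of 6 members were called in SoLo (4 rose, 1 fell), where 38.4% of all 14196 genes were called. In SPIA 4 of 5 tested members were called (2 rose, 2 fell), against 36.6% of 15578 genes. The fit without the 3 SoLo 8-cell embryos with cumulus markers leaves 1 8-cell library, so no count of calls is given for it. Calls that it lost are named with each gene. Over the SPIA embryos without a SoLo library, 2 of 5 members were called, where 2231 of 11491 genes were.

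For the morula against the 8-cell stage, 2 of 6 members were called in SoLo (1 rose, 1 fell), with a background of 16.7%, and 2 of 5 in SPIA (1 rose, 1 fell), with a background of 19.4%. Between the morula and the expanded blastocyst 0 of 6 were called in SoLo, where 1.14% of genes were called, and 3 of 5 in SPIA (2 rose, 1 fell), where 14.7% were. In SoLo the edgeR test called 162 genes for that step, 2286 had an unadjusted p under 0.05, and DESeq2 called 679. Without morula 022916_01 edgeR called 1477 of 15120 genes there, LRP2 among them. With 5 or 6 members chosen in this way, the shares are not read as a result about these genes for any step.

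**Figure D3:**
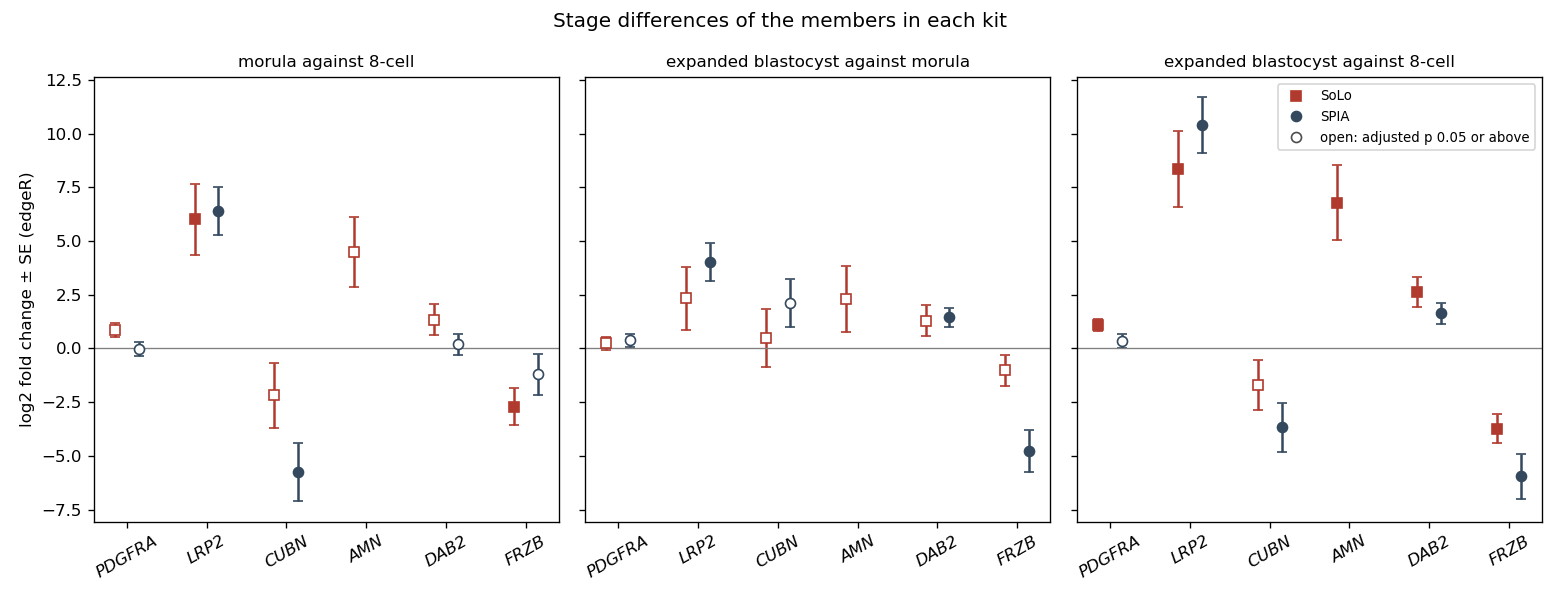
Log2 fold changes from edgeR with their SE, for 3 stage comparisons, with SoLo as squares left of SPIA as circles, and open symbols for an adjusted p of 0.05 or above. For the expanded blastocyst against the 8-cell stage, LRP2 lies at 8.35 and 10.4 and FRZB at -3.73 and -5.96 in SoLo and SPIA, and AMN has a value in SoLo only.

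The delayed blastocysts, 2 embryos that share title code 112515 with 2 of the expanded ones, did not differ from the expanded blastocysts in any of the 5 tested members (edgeR adjusted p = 1.0 for each). The background was 0.0%: edgeR called 0 of 15578 genes, 196 had an unadjusted p under 0.05, and DESeq2 called 22. The log2 fold changes of delayed against expanded blastocysts were -1.47 ± 1.60 for LRP2, -0.90 ± 0.61 for PDGFRA, -0.28 ± 0.82 for DAB2, -0.70 ± 1.79 for FRZB and -1.01 ± 2.12 for CUBN (SE). With 2 embryos, differences of these sizes were within the error.

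Both kits were applied to the same 11 embryos, 4 8-cell embryos, 3 morulas and 4 expanded blastocysts, and here the libraries were scaled together. PDGFRA gave lower values in SoLo than in SPIA in 11 of 11 embryos, with a log2 fold change of -1.21 ± 0.22 (edgeR adjusted p = 1.52e-04). It was the 1 member of 5 called, where 18.5% of 14724 genes were. With embryo as a replicate block, DAB2 was called too, at -0.81 ± 0.22 (edgeR adjusted p = 0.00966), and it was lower in SoLo in 10 of 11 embryos. The edgeR test without the block gave -0.60 for DAB2 (adjusted p = 0.211).

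LRP2 was not separated by kit (log2 fold change 0.59 ± 0.80, edgeR adjusted p = 0.674) and was higher in SoLo in 5 of 11 embryos. In the 4 paired expanded blastocysts it had 5161, 5579, 3689 and 4008 CPM in SoLo, and 4681, 4532, 4069 and 4009 CPM in SPIA. In morula 022916_01 it had 2493 CPM in SoLo and 2097 CPM in SPIA, so the high level of that morula was measured in both kits. The 8-cell embryo 112815_02, the highest of the SoLo 8-cell group, had 43.0 CPM in SoLo and 3.76 CPM in SPIA.

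CUBN was higher in SoLo in 8 of 11 embryos (2.27 ± 0.86, edgeR adjusted p = 0.0641). FRZB was lower in SoLo in 8 of 11 (-1.51 ± 0.76, edgeR adjusted p = 0.185), and in 8-cell embryo 020816_07 it had 47.1 CPM in SoLo and 1189 CPM in SPIA. No stage difference of a member depended on the kit past the threshold: the interaction gave 0 of 5 members in each of 3 comparisons, with a background of 0.0% of 14724 genes. Unadjusted p under 0.05 occurred in 1198 genes for morula against 8-cell, 491 for expanded blastocyst against morula and 1315 for expanded blastocyst against 8-cell, FRZB among them in the first and the last (0.0475 and 0.0380).

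**Figure D4:**
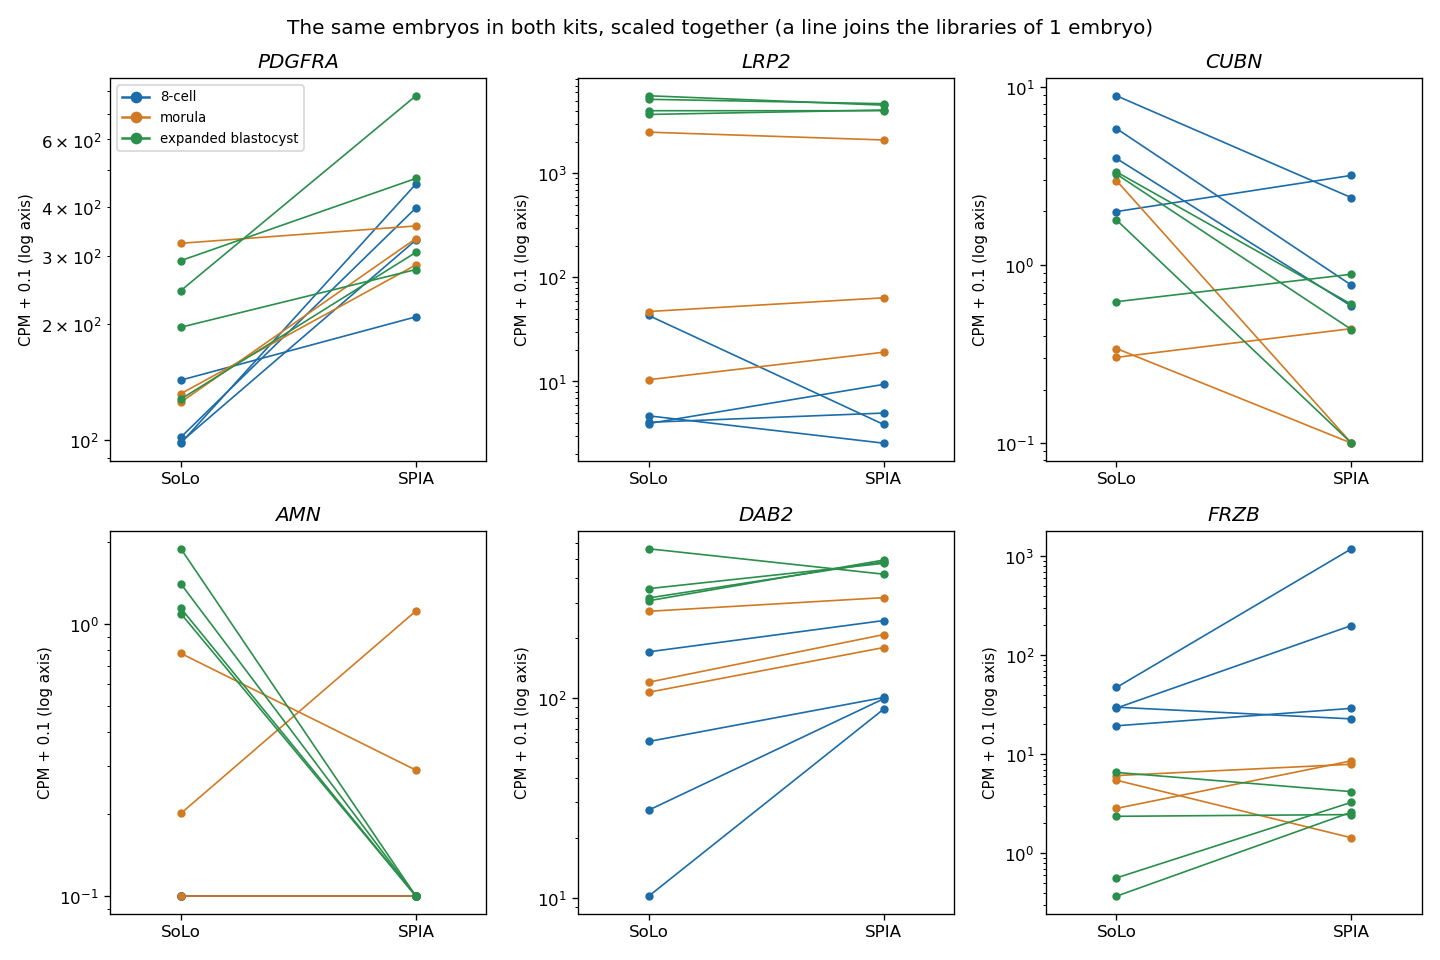
Each line joins the SoLo (left) and SPIA (right) library of 1 of 11 embryos, as CPM plus 0.1 on a log axis after scaling both kits together, coloured by stage. PDGFRA is lower in SoLo in 11 of 11 embryos, LRP2 keeps its spread between stages in both kits, and the 4 expanded blastocysts have AMN in SoLo and none in SPIA.

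Among the 14 SPIA expanded blastocysts, 10 pairs of members were compared by Pearson's r and Spearman's rho of log2(CPM + 1), each with a two-sided permutation test. LRP2 and DAB2 gave r = 0.869 (adjusted permutation p = 0.0310) and rho = 0.613 (adjusted permutation p = 0.227). PDGFRA and FRZB gave r = -0.666 (adjusted permutation p = 0.0340) and rho = -0.490 (adjusted permutation p = 0.384). The other 8 pairs did not pass the adjusted threshold by r, and no pair passed it by rho.

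Both relations rested on few libraries. Leaving out the 2 embryos farthest from the median of the first gene gave r = 0.370 for LRP2 and DAB2 and r = -0.532 for PDGFRA and FRZB, and the shallow library 111715_05 was 1 of the 2 each time. Without that library alone 0 of 10 pairs passed, with r = 0.498 and r = -0.416. After centring on title code 5 of 10 pairs passed by r, and no pair passed by rho (lowest adjusted permutation p = 0.0609). The centred values still include the shallow library.

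**Figure D5:**
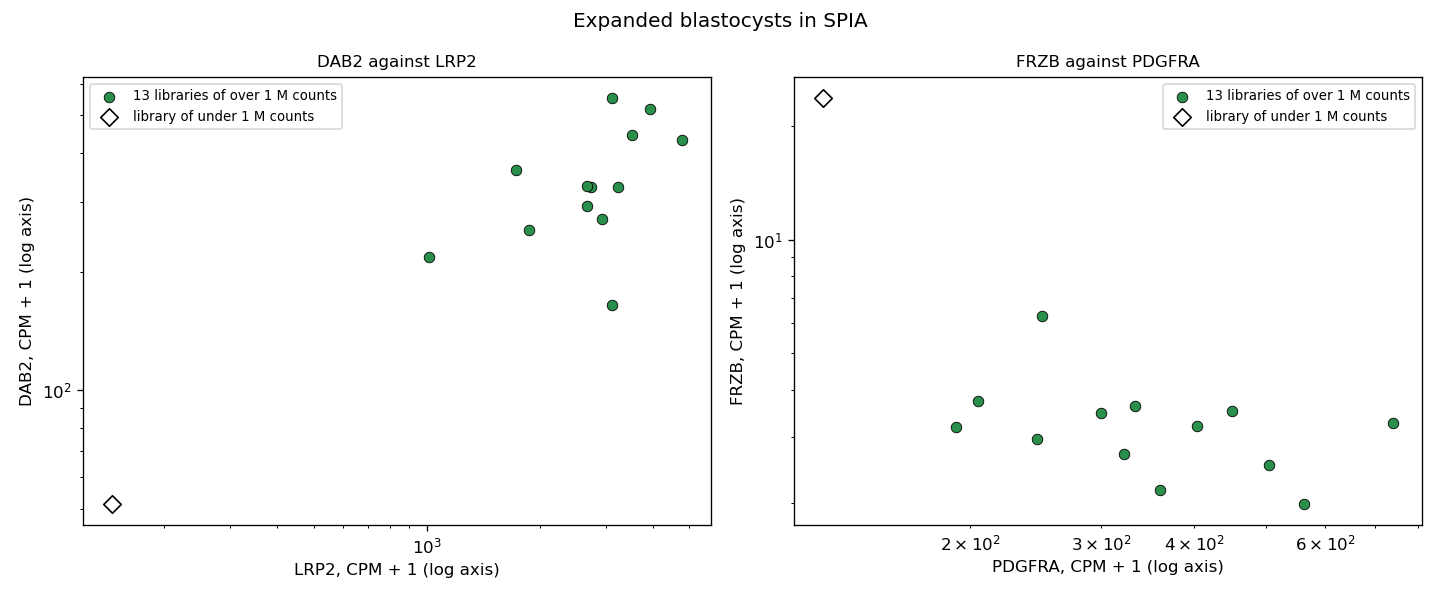
Each point is 1 of 14 SPIA expanded blastocysts, as CPM plus 1 on log axes, with DAB2 against LRP2 on the left and FRZB against PDGFRA on the right. The open diamond, the library of 0.601 M counts, lies at 144 CPM of LRP2 and 22.9 CPM of FRZB, apart from the other 13.

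Across all 36 SPIA libraries, the genes with the pattern most like each member were found among 12018 named genes by Pearson's r of log2(CPM + 1), as a description over libraries that share stages and depth. For LRP2 they were KRT18 (r = 0.952), FIGN (0.930) and TBX3 (0.930), and in the 13 SoLo libraries the values were 0.990, 0.960 and 0.926. In SoLo, KRT18 averaged 14.6 ± 22.3 CPM at the 8-cell stage, 279.7 ± 438.0 CPM in morulas and 1320 ± 236.1 CPM in expanded blastocysts (SD, n = 4, 3 and 6), and in SPIA morula 022916_01 it stood at 98.6 CPM. For DAB2 they were MYH9 (0.820), IPO9 (0.811) and CKAP5 (0.810), with 0.935, 0.631 and 0.771 in SoLo. MYH9 is a nonmuscle myosin heavy chain.

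For FRZB the most similar genes were CCDC149 (0.869), the LDL receptor relative LRP1B (0.846) and AFF3 (0.834), with 0.843, 0.807 and 0.908 in SoLo. For PDGFRA they were HIF1A (0.678), ACTG1 (0.674) and GPRC5B (0.673), the weakest matches of the 5 members. For CUBN they were KCNA3 (0.939), PLEKHS1 (0.908) and ENTREP1 (0.862), but in SoLo PLEKHS1 gave -0.515. KCNA3 averaged 47.7 ± 125.1 CPM in SPIA 8-cell embryos (SD, n = 9), an SD above its mean, as CUBN itself did.

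Other genes of the primitive endoderm, from a list of 21 of which 15 were tested, gave the setting. Between the 8-cell stage and the expanded blastocyst 9 rose and 1 fell in SoLo, and 10 rose and 2 fell in SPIA, beside 38.4% and 36.6% of all genes called, with median log2 fold changes of 3.13 and 2.89. The basement membrane gene LAMC1 rose by 4.99 in SoLo and 4.80 in SPIA, and APOA1, an apolipoprotein of visceral endoderm and liver, by 7.35 and 7.95, on the log2 scale. HHEX, a transcription factor, fell in both kits (-2.80 in SoLo, -3.08 in SPIA), and in SPIA the call was lost without 8-cell embryo 020816_09 (-2.05, edgeR adjusted p = 0.0690).

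The lineage regulators differed from each other. GATA6 was higher in morulas than in 8-cell embryos in both kits (log2 fold change 1.23 ± 0.33 in SoLo, edgeR adjusted p = 0.0163; 1.57 ± 0.47 in SPIA, edgeR adjusted p = 0.0155) and had 0.06 and -0.31 between the morula and the expanded blastocyst, not past the threshold in either. Without morula 022916_01 the SoLo value for morulas was 1.05 (edgeR adjusted p = 0.0590). GATA4 rose between the morula and the expanded blastocyst in SPIA, by 3.89 ± 1.19 (edgeR adjusted p = 0.0224), and its SoLo value was 0.84 ± 1.72 (edgeR adjusted p = 0.861). SOX17 was not analysed here.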

How the data were processed

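The values are raw counts, whole numbers without normalisation, which the authors deposited in 1 table of Ensembl gene identifiers. HISAT2 and DESeq2 were used, per the submitters' processing notes. The sources used here do not name the read counter, genome build, annotation or strand setting, and overlapping or antisense genes may share counts. Of the columns, 49 matched a sample, 2 of them by group only, and 3 matched none and were not used. No sequences or coordinates were used.

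The counts were tested with edgeR 4.0.16 in R 4.3.3 (robust quasi-likelihood, TMM scaling, filterByExpr, Benjamini-Hochberg adjustment), with all stages of a kit in 1 fit. AMN did not pass the filter in SPIA or in the comparison of kits. SE came from the fold change and the F statistic. The alternatives were fits in DESeq2 1.42.0 and limma 3.58.1 (voom), other scalings and filters, and libraries left out. The main design was tested on simulated data, and no outcome of that test is given here. Precision from depth covers counting error only, and totals are in the report. P-values measure the spread between embryos, and embryos with a shared title code may share parents or a day.

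Where a SoLo and a SPIA title agree in stage, code and number, the 2 libraries were treated as 1 embryo. Deviations from group means over 13544 genes correlated with a median of 0.228 over 11 pairs, 10 of them above 0.1.

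The members and lists were chosen with earlier results of these data known. All 6 members are named, with the 3 most similar genes of each, and from lists of related genes those called, largest first, plus GATA4, GATA6 and PDGFA. Correlations (scipy 1.17.1, 100000 resamples) and figures (matplotlib 3.10.9) were made in Python 3.11.15, with pandas 2.3.3 and numpy 2.4.6.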

Additional observations from a re-analysis of the deposited data

Results flagged for a closer look

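Each gene was examined in the 3 groups of 4 to 10 libraries, the 8-cell embryos of both kits and the SoLo expanded blastocysts, which gave 16 sets of values that share libraries. In 7 of these sets 1 embryo lay far from the others in CPM without a log. Such values are skewed, so the number of sets was not compared with chance. Morulas and SPIA expanded blastocysts were not examined, because of their group sizes. In SPIA 8-cell embryos, 020816_09 had the highest PDGFRA (919.4 CPM) and CUBN (104.0 CPM), 020816_06 had the highest LRP2 (5.95 CPM), and 011516_02 had the highest DAB2 (405.9 CPM). In SoLo 8-cell embryos, 112815_02 had the highest PDGFRA (177.9 CPM) and LRP2 (53.6 CPM). In SoLo expanded blastocysts, 112415_03 had the highest FRZB (8.32 CPM). Library 020816_09 also held 1 count of LRP2 and 17 counts of DAB2. No explanation was tested.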

How the results depend on the processing

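Of the log2 fold changes recomputed under an alternative, 869 kept direction and side of the threshold, 36 lost the call, 15 gained it and 20 turned direction. LRP2 and FRZB in expanded blastocysts against 8-cell embryos turned under none. The cause was not tested for any change below.

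Members called for morula against 8-cell in SPIA were 1 of 5 with only the compared groups, where 446 of 9329 genes were called. They were 1 over embryos without a SoLo library (290 of 11491) and 1 without 8-cell embryos 011516_03 and 020816_09 (2319 of 15131). Within title code 020816 they were 0 (4 of 11244). In SoLo that count was 1 of 6 without a filter (2038 of 21594 genes) or with only the compared groups (1266 of 12601). It was 0 without morula 022916_01 (1942 of 15120). For expanded blastocyst against morula in SoLo it was 1 in voom with or without the block on title code (291 and 564 of 14196). It was also 1 without morula 022916_01 (1477 of 15120). For expanded blastocyst against 8-cell it was 2 in SPIA over embryos without a SoLo library (2231 of 11491). Counts from the SoLo fit with 1 8-cell library left are not given. With embryo as a replicate block, 2 members differed between paired SoLo and SPIA libraries (2900 of 14724 genes), and 0 interactions of members were called. Pairs correlated by r numbered 5 after centring on title code, with the shallow library kept, and 0 without the shallow library.

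Leaving out 1 library at a time, the counts called in SPIA ran from 2 to 3 for morula against 8-cell, and stayed at 3 for expanded blastocyst against morula, 4 for expanded blastocyst against 8-cell and 0 for delayed against expanded. Over all genes, the calls ran from 2603 of 15392 to 3541 of 15301 for the first comparison. They ran from 1687 of 15301 to 2631 of 15607 for the second, from 5293 of 15392 to 5660 of 15341 for the third, and stayed at 0 for the last. The 4 members called for expanded blastocyst against 8-cell were not always the same genes: without 8-cell embryo 020816_09 CUBN lost its call (edgeR adjusted p = 0.294) and PDGFRA gained one (0.0237). In SoLo the members called ran from 0 to 3, 0 to 1 and 4 to 5 for the same first 3 comparisons. Over all genes, the SoLo calls ran from 1740 of 15172 to 2550 of 13925 for the first. They ran from 5 of 15309 to 1477 of 15120 for the second, and from 4660 of 14125 to 5426 of 13925 for the third.

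PDGFRA in morulas against 8-cell embryos in SPIA turned direction to 0.00584 with the stricter filter, 0.0299 with only the compared groups, 0.238 and 0.241 in voom with and without the block, 0.0285 over embryos without a SoLo library, 0.466 without 011516_03 and 020816_09, and ran from -0.272 to 0.445 leaving out 1 library. DAB2 there was -0.319 over embryos without a SoLo library and -0.192 without those 2 embryos, and FRZB was 0.638 within code 020816. For delayed against expanded blastocysts, leaving out 1 library gave DAB2 from -1.10 to 0.244 and CUBN from -6.53 to 0.460, and DESeq2 gave CUBN 0.611. In SoLo expanded blastocysts against morulas, leaving out 1 library gave PDGFRA from -0.0199 to 0.879 and CUBN from -0.014 to 2.71. The LRP2 interaction for that step was 0.415 with the embryo as a replicate block. Without the shallow library, r was 0.322 for LRP2 and FRZB, 0.196 for CUBN and DAB2, and 0.443 for DAB2 and FRZB.

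Another model moved the median log2 fold change of all genes for expanded blastocyst against 8-cell in SPIA. It was -0.43 in edgeR, 0.50 in voom with the same TMM scaling, and -0.31 in edgeR with DESeq2 size factors. In the main fit 2017 of 5708 called genes were higher, and in voom 3640 of 5505 were. CUBN, AMN and the FRZB of blastocysts rest on few counts, which limits their precision.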

Other observations

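Markers of other cell types were summed in each library. Blood and immune markers reached at most 19.7 CPM in 8-cell embryos, 7.74 CPM in morulas and 11.7 CPM in expanded blastocysts in SoLo, and 26.9, 68.7 and 17.4 CPM in SPIA. Epiblast markers, of which 3 were measured, had medians of 370.1, 282.1 and 273.6 CPM at these stages in SoLo and of 155.5, 123.8 and 66.6 CPM in SPIA. The 6 measured trophectoderm markers had medians of 246.5, 247.7 and 2199 CPM in SoLo and of 170.8, 140.7 and 626.0 CPM in SPIA.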
